A study of Mus musculus with 12 samples.

Results

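The genes described here make cholesterol or control its making: 27 mouse genes, named by symbol, out of 39017 Ensembl gene IDs in a count table of spinal cord microglial RNA. They comprise the enzymes of the mevalonate, isoprenoid, squalene and sterol steps, the sterol carrier Stard4, and the transcription factor SREBP2 with the proteins that hold, escort and cut it. All 27 were found in the table, and 26 of them had enough reads to be tested. The libraries form 2 groups, both from female C57BL/6 mice with EAE (experimental autoimmune encephalomyelitis, an immune attack on myelin), both carrying Tmem119-Cre and RiboTag, and both sequenced as RNA of spinal cord microglia. The cKO group (6 libraries, replicates 1 to 6) has a conditional knockout of Kdm6a, an X-linked gene for a histone demethylase. The WT group (6 libraries, replicates 7 to 12) is labelled wild type. RiboTag puts a tag on ribosomes of cells in which Cre has acted, and Tmem119 is a gene of microglia, so the tagged ribosomes and the deletion depend on the same driver. The sources used here state no age, no stage of disease and no number of animals per library, and p-values therefore speak only of the spread among libraries.

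Cholesterol is built from acetyl-CoA through mevalonate, isoprenoid units and squalene to lanosterol, which a chain of enzymes in the endoplasmic reticulum (ER) trims and reduces to cholesterol. When ER sterol is low, SCAP carries the precursor of SREBP2 to the Golgi, where site-1 and site-2 proteases free the part that enters the nucleus and switches on most genes of the pathway. When sterol is high, INSIG proteins keep SCAP in the ER. In the central nervous system cholesterol is made locally, because lipoproteins do not cross the blood-brain barrier, and astrocytes and oligodendrocytes are its best known producers. Microglia can also meet sterol as debris of myelin.

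The deleted gene was read at a low level. Kdm6a had 1.59, 2.81 and 4.50 CPM (the read count relative to the TMM-scaled library total) as the lowest, median and highest of the 6 cKO libraries, against 3.35, 4.29 and 6.19 CPM in WT. All cKO libraries except cKO 2 lay below WT, so the label of cKO 2 is not checked by this gene. The log2 fold change was -0.70 ± 0.25 (SE, n = 6 each) and did not pass (adjusted p = 0.117, edgeR), and which exons the deletion removes is not stated in the labels. Library totals ran from 19040115 to 25009657 reads in cKO and from 20386143 to 26296071 in WT. The 12 microglial markers summed to 40700 to 57800 CPM in cKO and to 44500 to 51300 CPM in WT, and 0 passed (3 higher and 1 lower at an unadjusted p under 0.05, 1 and 1 by DESeq2, 4 and 3 by limma-voom). Their log2 fold changes were positive in 7 of the 12, and the smallest p belonged to Fcrls, a microglial Fc receptor-like gene, at 469 ± 207 CPM in cKO and 816 ± 203 CPM in WT (SD, n = 6 each; log2 fold change -0.80 ± 0.28, adjusted p = 0.107, edgeR). Of all genes, 2.44% were called higher and 3.43% lower by edgeR, 6.75% and 5.53% by DESeq2, and 16.7% and 14.2% by limma-voom.

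Those genes of the pathway that passed the test were all higher in cKO. Of the 26 tested members, 8 rose in cKO (Hmgcs1, Mvd, Fdps, Sqle, Cyp51, Msmo1, Stard4 and Srebf2), 0 fell and 18 did not pass the test, which was the edgeR quasi-likelihood test with p-values adjusted over all 15015 tested genes and a threshold of 0.05. Over all tested genes, 2.44% were called higher and 3.43% lower in cKO. At an unadjusted p under 0.05 the count of members was 12 higher and 0 lower. No share of all genes was taken at that threshold, for the members or for any list. As a gauge, Hsd17b7 (unadjusted p = 0.0622, edgeR) ranked 3936 by p among the 15015 genes, so fewer genes than that lay under 0.05, both directions together. DESeq2 called 11 higher and 0 lower, against 6.75% and 5.53% of all genes, and limma-voom with sample weights 13 higher and 0 lower, against 16.7% and 14.2%. The median log2 fold change was 0.32 over the 26 members and 0.03 over all tested genes. A positive log2 fold change was seen in 22 of the 26, against 54.6% of all tested genes. In 4 members (Sqle, Cyp51, Msmo1 and Stard4) every cKO library lay above every WT library, which was so for 1.33% of all tested genes, while the reverse, seen in 0 members, held for 2.80%. No tested member had fewer than 66 reads in any library, so none entered the test through 1 group alone. In bulk RNA of this kind, fewer cells of a type and less RNA per cell cannot be told apart.

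The count of 8 was not steady. It was 4 without cKO 1 (1.15% of all genes called higher), without cKO 4 (1.25%), without WT 9 (0.994%) or without WT 12 (1%), and 5 without WT 7 (1.36%) or with no filter (1.04%). It was 4 without cKO 1 and cKO 2 together (0.931%). Without cKO 5 it was 11, and 1 member fell, when 10.8% of all genes were higher and 7.82% lower. Of the 8, Cyp51 and Stard4 passed in all 23 alternative fits, Sqle in 22 and Msmo1 in 21, and the fits in which these 2 did not pass left out cKO 1 and cKO 2, with or without cKO 4. These genes lie on the mm10 build at chr15:59315077-59331192 (Sqle), chr5:4081145-4104746 (Cyp51), chr8:64718139-64733792 (Msmo1) and chr18:33199355-33213862 (Stard4).

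**Figure D1:**
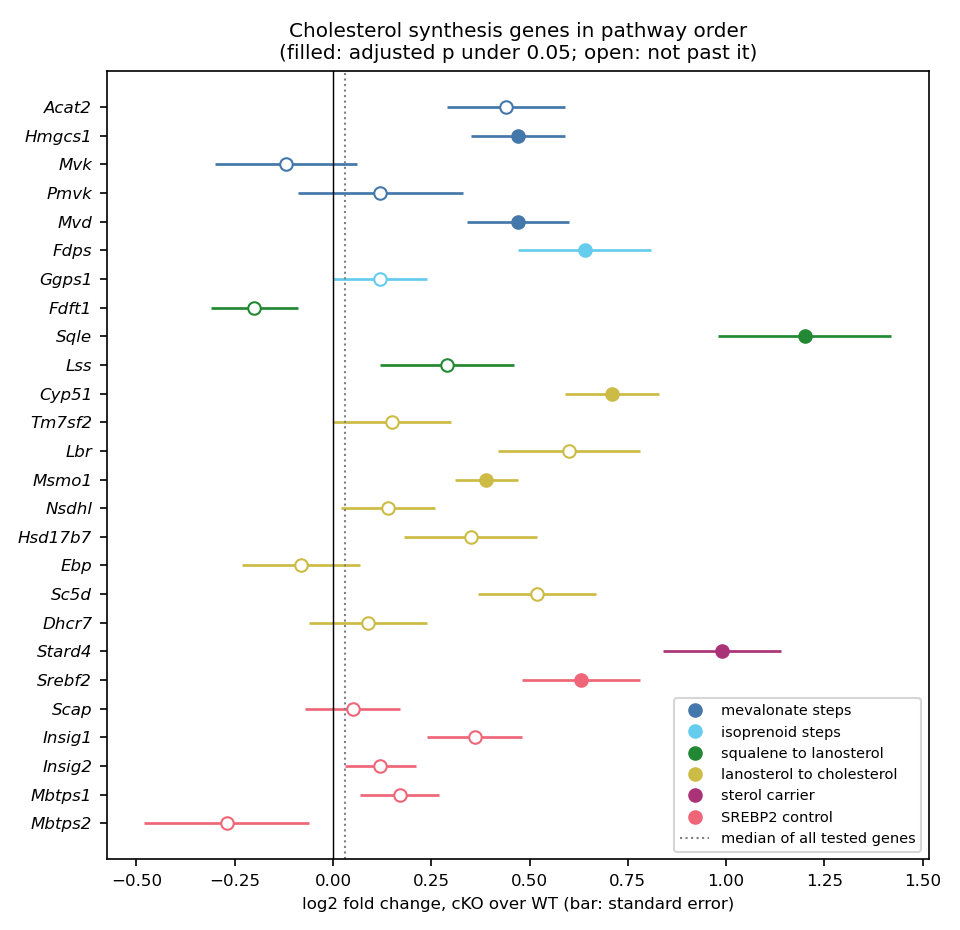
Log2 fold change of cKO over WT (horizontal axis, bars are standard errors) for the 26 tested members in pathway order from top to bottom, coloured by stage. Filled points, those with an adjusted p under 0.05, run from 0.39 for Msmo1 to 1.20 for Sqle; the dotted line is the median of all tested genes at 0.03.

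The first steps were uneven. Hmgcs1, which joins acetyl groups into HMG-CoA, had 25.4, 28.0 and 37.2 CPM as the lowest, median and highest of the 6 cKO libraries, against 18.3, 21.6 and 25.9 CPM in WT. Libraries cKO 1 to 4 lay above every WT library, while cKO 5 and cKO 6 fell within the WT range. Its log2 fold change was 0.47 ± 0.12 (SE, n = 6 each), a 1.38-fold rise with an adjusted p of 0.0446 (edgeR). Mvd, which removes carbon dioxide to give the first isoprenoid unit, had 15.3, 20.8 and 24.6 CPM in cKO, against 13.1, 15.2 and 16.2 CPM in WT, with every cKO library except cKO 2 above all of WT. It rose by 0.47 ± 0.13 on the log2 scale (adjusted p = 0.0484, edgeR). The 2 kinases between them did not pass, and each was highest by far in cKO 5. Mvk, mevalonate kinase, had 12, 13.8 and 26.1 CPM in cKO, against 13.5, 17.3 and 19.7 CPM in WT (log2 fold change -0.12 ± 0.18, adjusted p = 0.765, edgeR). Pmvk, phosphomevalonate kinase, had 29.0, 39.2 and 79.2 CPM in cKO, against 35.3, 38.5 and 54.5 CPM in WT (0.12 ± 0.21, adjusted p = 0.793, edgeR). Without cKO 5, Mvk was called lower in cKO (log2 fold change -0.33, adjusted p = 0.0453) and the log2 fold change of Pmvk was -0.12.

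Acat2, which condenses acetyl-CoA at the entry to the pathway, had 6.79, 8.37 and 12.4 CPM in cKO, against 5.33, 6.52 and 7.42 CPM in WT, and all cKO libraries except cKO 3 were above WT. Its log2 fold change of 0.44 ± 0.15 did not pass (adjusted p = 0.0902, edgeR). Acat3 has a transcript 97.7% identical to it over 1477 bases and held 10624 reads over the 12 libraries, against 2049 for Acat2, so reads may have been divided between these genes. Hmgcs1 lies across 557 bases of the antisense gene Gm48342, which has no ID in the count table. The calls of Hmgcs1 and Mvd sat close to the threshold. With no filter neither passed, nor did Hmgcs1 with library totals without Apoe or Mvd with RLE scaling. Hmgcs1 lost its call without cKO 1, 2 or 4 or WT 7, 8, 9, 10 or 12, and Mvd without cKO 1, 3, 4 or 6 or WT 7, 8, 9, 10, 11 or 12. Over the 12 fits without 1 library, the log2 fold change of Hmgcs1 ran from 0.39 to 0.53 with an adjusted p of 0.0164 to 0.102, and that of Mvd from 0.40 to 0.55 with an adjusted p of 0.0197 to 0.105.

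At the isoprenoid stage, 1 of the 2 tested genes rose. Fdps, farnesyl diphosphate synthase, which feeds both sterols and prenylation, had 9.32, 10.7 and 18.3 CPM in cKO, against 6.18, 7.30 and 9.40 CPM in WT. Only cKO 2 lay below the highest WT library, and cKO 5 stood far above the other cKO libraries. It rose by 0.64 ± 0.17 on the log2 scale, 1.56-fold (adjusted p = 0.0422, edgeR). It shares 1124 bases of exon with Gm43738 on the same strand, which has no ID in the count table. Ggps1, which adds the next unit to make the geranylgeranyl anchor of small GTPases, had 5.69, 6.05 and 7.40 CPM in cKO, against 5.25, 5.79 and 6.81 CPM in WT (0.12 ± 0.12, adjusted p = 0.588, edgeR). The difference between the 2 genes was not tested. The call of Fdps ended with no filter and without cKO 1, 4 or 6 or WT 7, 9, 10, 11 or 12. Over the 12 fits without 1 library its log2 fold change stayed between 0.47 and 0.71, with an adjusted p of 0.0203 to 0.0931. Idi1, the isomerase between Mvd and Fdps, was close to undetected, with 1 to 6 reads per library in cKO and 0 to 4 in WT, where 3 reads were worth 0.109 to 0.157 CPM; no fold change is given for it. A processed pseudogene, Gm13502, holds a stretch of 684 bases identical to Idi1 and had 17 reads in all.

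The largest rise of the pathway was that of Sqle, squalene epoxidase, an oxygen-dependent and rate-limiting step. It had 9.24, 12.4 and 17.3 CPM in cKO, against 3.14, 5.29 and 9.03 CPM in WT. The lowest cKO library (cKO 6) just cleared the highest WT library (WT 10). Its fold change was 2.29 (log2 1.20 ± 0.22, adjusted p = 0.00674, edgeR), and it passed in each of the 12 fits without 1 library. Lss, which folds squalene epoxide into lanosterol, had 9.39, 12.1 and 16.7 CPM in cKO, against 7.74, 10.3 and 12.5 CPM in WT, with cKO 1, 2 and 4 above WT (0.29 ± 0.17, adjusted p = 0.333, edgeR). Fdft1, squalene synthase, had 89.0, 104 and 129 CPM in cKO, against 108, 124 and 137 CPM in WT (-0.20 ± 0.11, adjusted p = 0.295, edgeR). The exons of Fdft1 share 774 bases with Ctsb on the other strand, and Ctsb, a cathepsin, held 2429368 reads in all against 30406 for Fdft1. No source used here states the strand setting of the counting, so reads of Ctsb within Fdft1 cannot be told apart from its own.

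**Figure D2:**
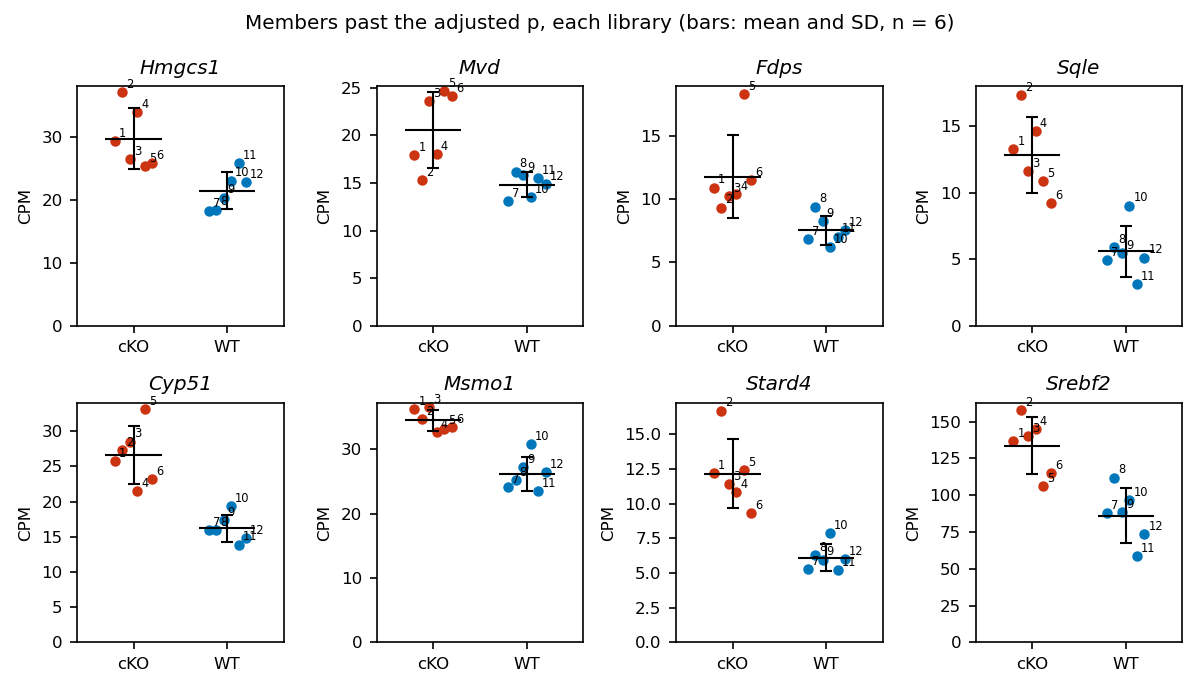
CPM (vertical axes, from 0) of the 8 members past the adjusted p in each library, numbered by replicate, with cKO at the left and WT at the right of each panel; lines and bars are mean and SD, n = 6. Sqle, Cyp51, Msmo1 and Stard4 show no overlap between the groups, and cKO 5 is the highest library for Mvd, Fdps and Cyp51, cKO 2 for Hmgcs1, Sqle, Stard4 and Srebf2.

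Among the 9 enzymes after lanosterol, 2 rose and 7 did not pass. Cyp51, which takes the first methyl group off lanosterol, had 21.5, 26.5 and 33.1 CPM in cKO, against 13.9, 16 and 19.3 CPM in WT. Every cKO library was above every WT library, and the rise was 1.64-fold (log2 0.71 ± 0.12, adjusted p = 0.00336, edgeR). Cyp51 shares 166 bases of exon with Akap9 on the other strand, which had 2150 reads over all libraries. Msmo1, the methyl sterol oxidase that follows, had 32.7, 34.0 and 36.6 CPM in cKO, against 23.5, 25.9 and 30.8 CPM in WT. Its cKO libraries were the most alike of any member, with a coefficient of variation of 4.80% in cKO and 10.1% in WT, and the rise of 1.31-fold passed (log2 0.39 ± 0.08, adjusted p = 0.0151, edgeR).

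Lbr and Sc5d had larger log2 fold changes than Msmo1 but did not pass. Lbr, a nuclear envelope protein that also reduces the sterol ring, had 5.65, 8.30 and 11.7 CPM in cKO, against 4.71, 5.77 and 6.70 CPM in WT, and cKO 3 alone of the cKO libraries was within the WT range (0.60 ± 0.18, adjusted p = 0.0713, edgeR). Sc5d, the sterol desaturase near the end of the chain, had 9.39, 13 and 15 CPM in cKO, against 7.29, 8.60 and 11.4 CPM in WT (0.52 ± 0.15, adjusted p = 0.0516, edgeR). Sc5d passed without cKO 5 (adjusted p = 0.0223), without cKO 6 or without WT 10, and Lbr without cKO 3 or without cKO 5 (adjusted p = 0.0291). Both also passed with DESeq2, with limma-voom and with 1 surrogate variable as a covariate. Those 3 fits called 6.75%, 16.7% and 8.17% of all genes higher. Sc5d passed with RLE scaling as well (adjusted p = 0.0469, edgeR). Tm7sf2, an ER protein with the same reductase activity as Lbr, did not pass (0.15 ± 0.15, adjusted p = 0.609, edgeR), with 15.3, 18.4 and 29.4 CPM in cKO, against 16.1, 17.1 and 20.6 CPM in WT. Its exons share 532 bases with Vps51 on the same strand.

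The other 4 sterol enzymes did not pass. Hsd17b7, a ketoreductase, averaged 4.53 ± 1.05 CPM in cKO and 3.55 ± 0.51 CPM in WT (SD, n = 6 each; log2 fold change 0.35 ± 0.17, adjusted p = 0.237, edgeR). Nsdhl, which works beside it and is X-linked, averaged 12.5 ± 1.42 CPM in cKO and 11.4 ± 1.61 CPM in WT (0.14 ± 0.12). Dhcr7, the reductase of the last double bond in one route to cholesterol, averaged 55.6 ± 14.4 CPM in cKO and 52.1 ± 3.49 CPM in WT (0.09 ± 0.15). Ebp, an X-linked isomerase, averaged 70.6 ± 19.1 CPM in cKO and 74.4 ± 5.38 CPM in WT (-0.08 ± 0.15). For Dhcr7 and Ebp the cKO libraries reached both above and below all of WT, with 3 above and 2 below for Dhcr7, and 2 above and 4 below for Ebp.

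Stard4, a soluble carrier that moves cholesterol between membranes and is itself a known SREBP2 target, had the smallest p of all members. It had 9.34, 11.8 and 16.7 CPM in cKO, against 5.19, 5.99 and 7.89 CPM in WT. No WT library reached the lowest cKO library. The rise was 1.99-fold (log2 0.99 ± 0.15, adjusted p = 0.00186, edgeR), and the log2 value stayed between 0.85 and 1.08 in all 23 alternatives.

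Of the 6 control genes, only the transcription factor itself passed the test. Srebf2, which encodes SREBP2, had 106, 138 and 158 CPM in cKO, against 58.5, 88.1 and 112 CPM in WT. All cKO libraries except cKO 5 were above WT, and WT 11 (58.5) and WT 12 (73.7) were the lowest of the 12. It rose 1.55-fold (log2 0.63 ± 0.15, adjusted p = 0.0240, edgeR). Insig1, the INSIG gene that SREBP2 itself switches on, had 13.3, 15.8 and 17.7 CPM in cKO, against 10.1, 12 and 15.2 CPM in WT, with cKO 1 to 4 above WT (0.36 ± 0.12, adjusted p = 0.0949, edgeR). Insig2, its relative with other regulation, had 21.2, 22.9 and 25.3 CPM in cKO, against 19.2, 21.1 and 22.9 CPM in WT (0.12 ± 0.09, adjusted p = 0.449, edgeR).

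Scap, the escort, averaged 74.3 ± 12.3 CPM in cKO and 71.6 ± 6.05 CPM in WT (SD, n = 6 each; log2 fold change 0.05 ± 0.12, adjusted p = 0.839, edgeR), and 985 bases of its exons lie opposite the transcript 5830462I19Rik. Mbtps1, the site-1 protease, averaged 124 ± 17.4 CPM in cKO and 111 ± 8.59 CPM in WT (0.17 ± 0.10). Mbtps2, the X-linked site-2 protease, averaged 7.73 ± 2.15 CPM in cKO and 9.33 ± 2.47 CPM in WT (-0.27 ± 0.21), the most negative value of the pathway. Mbtps2 shares 2867 bases of exon with Yy2 on the same strand, which had 460 reads in all. The call of Srebf2 ended without cKO 1, 2 or 4 or WT 9 or 12. Over all 12 such fits its log2 fold change stayed between 0.54 and 0.72, with an adjusted p of 0.00846 to 0.0669. Insig1 passed without cKO 5 (adjusted p = 0.0342), with DESeq2 and with limma-voom.

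SREBP2 binds sterol response elements, usually beside sites for the factors NF-Y and Sp1, so the promoters of the members were searched for these motifs. RefSeq promoter windows (GRCm38.p6, 250 bases before to 50 after a start) were at hand for 23 of the 27 members, 5 of which had risen, and not for Fdps, Fdft1, Sqle or Stard4. Both strands were searched. The element TCACNCCAC was found in 1.24% of all 32851 windows (1.44% of the 27025 genes) and, among members, in Hmgcs1. Its shorter form TCACNCCA, which includes every match of the longer one, was found in 4.36% of windows (4.97% of genes) and in 3 members, Hmgcs1, Srebf2 and Msmo1. The NF-Y motif CCAAT was found in 19 of the 23 members, against 41.1% of genes, and the Sp1 motif GGGCGG in 20, against 38.2%. These shares are over all genes with a window, whether or not they were read in these libraries. A gene counts if any of its windows matches, and no share was taken over expressed genes alone. A match is a description of letters and shows no binding, and its absence shows only that those letters are not in the window. The stretches below, 5′ to 3′ along each gene, carry the element in 3 genes that rose, and Mvd is given as a gene that rose whose window holds CCAAT and GGGCGG without the sterol element. Capitals mark the sterol element and CCAAT or its reverse complement ATTGG.
Hmgcs1, chr13:119690101-119690350, plus strand: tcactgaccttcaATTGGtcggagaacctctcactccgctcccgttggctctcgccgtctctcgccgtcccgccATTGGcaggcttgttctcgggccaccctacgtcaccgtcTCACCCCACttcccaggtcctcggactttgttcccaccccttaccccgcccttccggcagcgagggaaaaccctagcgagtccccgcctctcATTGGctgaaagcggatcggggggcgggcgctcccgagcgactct
Srebf2, chr15:82147019-82147180, plus strand: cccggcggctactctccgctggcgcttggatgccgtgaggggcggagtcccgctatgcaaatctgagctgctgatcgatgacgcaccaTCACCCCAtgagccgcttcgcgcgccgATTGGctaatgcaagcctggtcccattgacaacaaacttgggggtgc
Msmo1, chr8:64733739-64733768, minus strand: ggtctcactattcTCACTCCAtccgcgcag
Mvd, chr8:122443423-122443672, minus strand: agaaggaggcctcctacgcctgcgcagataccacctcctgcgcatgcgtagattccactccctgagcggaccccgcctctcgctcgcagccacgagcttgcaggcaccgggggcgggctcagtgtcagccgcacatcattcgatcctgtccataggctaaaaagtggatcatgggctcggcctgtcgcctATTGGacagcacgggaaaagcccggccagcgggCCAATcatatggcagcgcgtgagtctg

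In Hmgcs1 the element begins 137 bases before the annotated start, and ATTGG lies 237, 176 and 45 bases before that start. In Srebf2 the element begins 162 bases before the start and ATTGG follows at 135 bases. In Msmo1 the element begins 177 bases before the RefSeq start, within an annotated exon of another transcript, so the site alone is given. CCAAT lies 160, 96 and 55 bases before that start, outside the stretch shown. Hmgcs1, Srebf2 and Msmo1 rose 1.38-, 1.55- and 1.31-fold in cKO.

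Levels per length put the enzymes in an order that differed from that of the changes. Length here is that of all annotated exons of a gene, merged over its transcripts. It can exceed the length of any 1 transcript, so the order depends in part on the annotation. On the scale of CPM per kilobase of annotated exon (GENCODE M21), the highest levels were those of Ebp (30.6 ± 8.25 in cKO and 32.2 ± 2.33 in WT, with SDs over 6 libraries), Fdft1 (25.5 ± 4.05 in cKO and 29.3 ± 2.52 in WT) and Pmvk (26 ± 10.6 in cKO and 23.9 ± 4.17 in WT), whose order does not stand beyond their spread, and the level of Fdft1 includes any reads of Ctsb. Srebf2 came next, at 18.6 ± 2.72 in cKO and 12 ± 2.55 in WT. The members with the largest fold changes were among the lower ones, with Sqle at 2.31 ± 0.52 in cKO and 1.01 ± 0.35 in WT, and Stard4 at 2.2 ± 0.44 in cKO and 1.09 ± 0.18 in WT. Lss, Mbtps2 and Hsd17b7 formed the lower end of the tested members, between 0.77 and 1.15 in cKO and between 0.70 and 0.94 in WT.

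**Figure D3:**
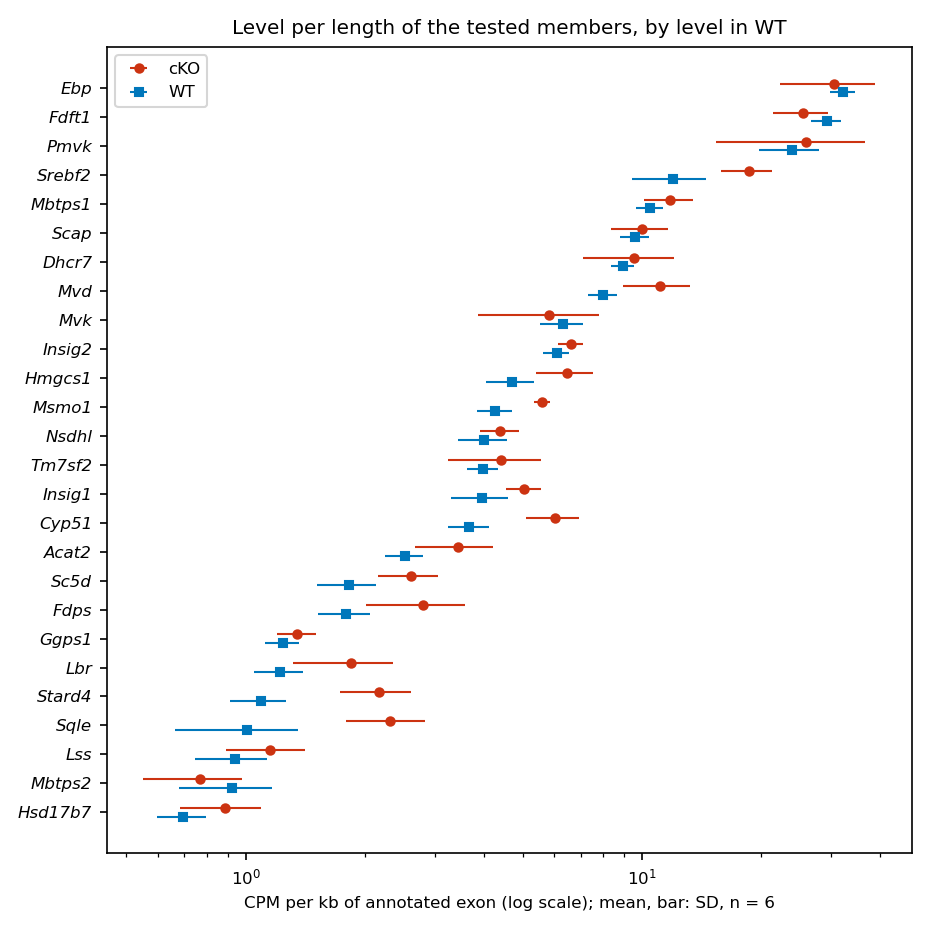
Mean level per length (horizontal log axis, CPM per kilobase of annotated exon; bars are SD, n = 6) of the 26 tested members in cKO (circles) and WT (squares), ordered by the WT level with the highest at the top. Sqle and Stard4 lie above 2 in cKO and near 1 in WT, while Ebp and Pmvk lie above 20 in both.

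The cKO libraries differed in which members were high. Averaged over the 8 members that rose, log2 CPM was lowest in cKO 6 at 4.46 and highest in cKO 2 at 4.72, against 3.72 in WT 11 to 4.11 in WT 10, for genes chosen by that difference. Over all 26 tested members the mean log2 CPM was 4.44 ± 0.05 in cKO and 4.13 ± 0.09 in WT (SD over 6 libraries). Among the 26 tested members, cKO 2 was the highest of all 12 libraries in 10 and the lowest in 4, and cKO 5 was the highest in 9 and the lowest in 3. The members highest in cKO 2 were Hmgcs1, Ggps1, Sqle, Lss, Sc5d, Stard4, Srebf2, Scap, Insig1 and Mbtps1, and those highest in cKO 5 were Acat2, Mvk, Pmvk, Mvd, Fdps, Cyp51, Tm7sf2, Hsd17b7 and Ebp. Libraries WT 7 and WT 11 were each the lowest in 7 members.

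**Figure D4:**
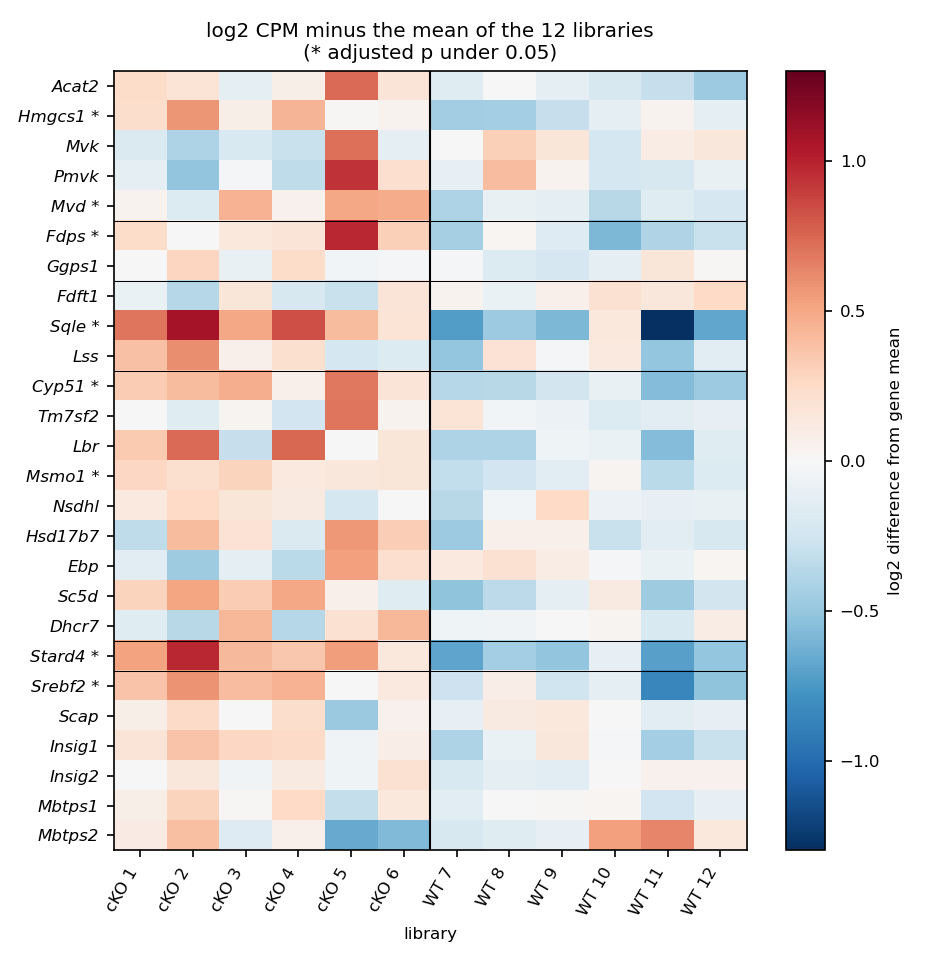
Log2 CPM of each tested member (rows, in pathway order, lines between stages) minus its mean over the 12 libraries (columns, cKO at the left of the black line and WT at the right); red is above the mean and blue below, and asterisks mark the 8 members past the adjusted p. Pmvk and Mvk are reddest in cKO 5, and Sqle and Stard4 are red in all 6 cKO libraries.

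Gene length moved with this contrast between cKO 2 and cKO 5. Over all tested genes, the log2 level in cKO 2 minus the mean of the other cKO libraries had a median of -0.29 among the 3708 genes with the shortest exons, the first of 4 length classes, and 0.32 among the 3707 with the longest (over 6534 bases). In cKO 5 the same medians were 0.33 and -0.34, while among WT libraries they stayed between -0.13 and 0.12. The 3 shortest members (Pmvk, Mvd and Ebp) and the 3 longest (Lss, Mbtps1 and Mbtps2) had the same signs. Pmvk, with 1713 bases of exon, was at -0.64 in cKO 2 and 1.09 in cKO 5, and Ebp, with 2310, at -0.48 and 0.70. Mbtps2, with 10105 bases, was at 0.64 in cKO 2 and -0.62 in cKO 5, and Lss, with 10787, at 0.55 and -0.44. Members of the 2 middle classes went both ways. In the second, with medians of -0.07 and 0.04 over all genes, Mvk was at -0.38 and 0.96, but Nsdhl at 0.22 and -0.36 and Insig1 at 0.22 and -0.27. In the third, with medians of 0.10 and -0.16, Hmgcs1 was at 0.40 and -0.25. There, Fdps was at -0.36 and 0.81, Tm7sf2 at -0.27 and 0.76, and Dhcr7 at -0.46 and 0.20. Of the 8 members that rose, 6 lay in the third length class (4141 to 6534 bases), which held 13 tested members and in which 3.16% of all genes were called higher. With the length trend of each library taken out (an alternative added after seeing the data), 10 members rose (3.22% of all genes) and 0 fell, the median log2 fold change was 0.26, and all 8 still passed, with Acat2 and Sc5d.

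**Figure D5:**
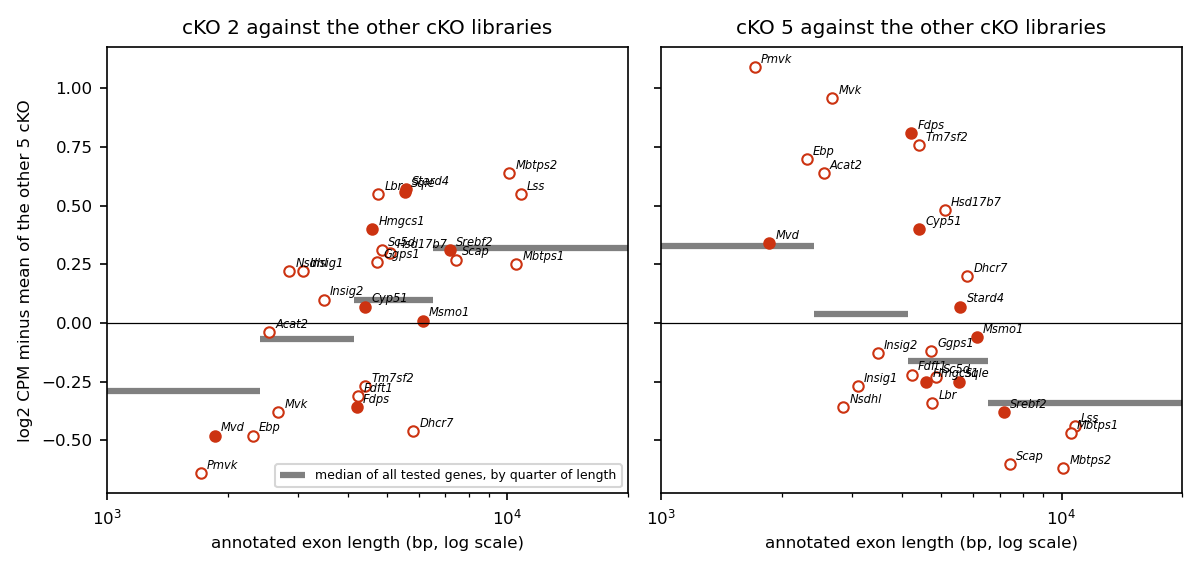
Log2 CPM in cKO 2 (left) and cKO 5 (right) minus the mean of the other 5 cKO libraries (vertical axis) against annotated exon length (horizontal log axis, bases) for the tested members, filled where past the adjusted p; grey bars are medians of all tested genes in each of 4 length classes. The short member Pmvk lies below 0 in cKO 2 and above 0 in cKO 5, and the long member Mbtps2 does the reverse. Others, such as Nsdhl and Fdps, lie on the side opposite to the medians of their length classes.

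Markers of other cells were read in all libraries. Counts of those called are to be read against the shares of all genes called higher and lower. These were 2.44% and 3.43% by edgeR, 6.75% and 5.53% by DESeq2, and 16.7% and 14.2% by limma-voom. No such share was taken at an unadjusted p under 0.05, so counts at that threshold have no background here. The 10 neuronal markers summed to 272 to 938 CPM in cKO and to 235 to 360 CPM in WT, with 1 of them (Uchl1) higher in cKO, 10 of 10 log2 fold changes positive and a median of 0.66. At an unadjusted p under 0.05, 9 of these 10 were higher and 0 lower (4 and 0 by DESeq2, 9 and 0 by limma-voom). The 10 astrocyte markers summed to 534 to 793 CPM in cKO and to 554 to 620 CPM in WT, and the 10 oligodendrocyte markers to 1700 to 2460 CPM in cKO and to 2080 to 2480 CPM in WT. None of either list passed in edgeR (4 of each were higher at an unadjusted p under 0.05, 2 astrocyte and 1 oligodendrocyte markers by DESeq2, 6 and 4 by limma-voom). The 8 Schwann cell markers summed to 139 to 315 CPM in cKO and to 280 to 328 CPM in WT, the 10 endothelial and mural markers to 30.7 to 125 CPM in cKO and to 48.6 to 76.0 CPM in WT. The 8 markers of monocytes and border macrophages stayed at or below 7.40 CPM in cKO and 7.88 CPM in WT, and the 8 of T cells at or below 8.79 CPM in cKO and 9.19 CPM in WT. Of these last 4 lists 5, 8, 3 and 3 genes were tested and 0 passed in edgeR. At an unadjusted p under 0.05 the Schwann list had 3 higher and 1 lower (3 and 0 by DESeq2, 1 and 1 by limma-voom) and the endothelial list 1 higher and 0 lower (0 and 0, 2 and 0). The monocyte list had 0 and 0 (0 and 0 by either tool) and the T cell list 0 higher and 2 lower (0 and 0, 0 and 2). None of the listed markers was at 0 in every library.

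Neuronal sums were highest in cKO 2 (938), cKO 1 (743) and cKO 4 (561), and lowest among cKO in cKO 6 (272) and cKO 5 (281), within the WT range. Without cKO 1, cKO 2 and cKO 4 (an omission added after seeing the data) 5 members rose, against 1.56% of all genes. Mvd (log2 fold change 0.72), Fdps (0.85), Cyp51 (0.82) and Stard4 (0.88) kept their calls, Dhcr7 gained one (0.40, adjusted p = 0.0423), and Sqle (0.94), Msmo1 (0.41), Srebf2 (0.50) and Hmgcs1 (0.29) lost theirs. With the first component of the neuronal, glial, endothelial and mural markers as a covariate, 6 members rose, against 2.02% of all genes, and Hmgcs1 (0.34) and Srebf2 (0.52) did not pass. The part of each other cell type in these results was not tested further.

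Genes that share the pathway's intermediates or partners were taken as 4 lists, to be read against the 2.44% of all genes called higher and 3.43% called lower. By DESeq2 these shares were 6.75% and 5.53%, and by limma-voom 16.7% and 14.2%. Of 15 tested genes that use isoprenoids (prenylation, dolichol and ubiquinone), 0 passed in edgeR (2 higher and 1 lower at an unadjusted p under 0.05, 1 and 0 by DESeq2, 1 and 2 by limma-voom). Fnta, a subunit of the prenyl transferases, had 89.9 ± 6.34 CPM in cKO and 73.9 ± 5.33 CPM in WT, with no overlap between the groups (log2 fold change 0.28 ± 0.08, adjusted p = 0.0516). Of 8 redox partners and scaffolds of sterol enzymes 0 passed (1 higher and 1 lower at an unadjusted p under 0.05, 1 and 0 by DESeq2, 0 and 1 by limma-voom). Of 9 tested genes of sterol-regulated degradation and ER retention, 1 fell: Aup1, an ER adaptor of protein degradation, averaged 160 ± 15.1 CPM in cKO and 203 ± 12.8 CPM in WT (SD; log2 fold change -0.35 ± 0.09, adjusted p = 0.0327, edgeR). At an unadjusted p under 0.05 that list had 1 higher and 2 lower (0 and 1 by DESeq2, 1 and 2 by limma-voom). Of 16 tested genes of sterol uptake and intracellular transport, 0 passed (1 higher and 3 lower at an unadjusted p under 0.05, 1 and 1 by DESeq2, 1 and 5 by limma-voom). The median log2 fold change of that transport list was -0.20, with 2 of 16 values positive, and the smallest p belonged to Gramd1b, an ER carrier of plasma membrane cholesterol, at 25.1 ± 8.14 CPM in cKO and 40.8 ± 6.92 CPM in WT (-0.70 ± 0.20, adjusted p = 0.0517, edgeR).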

How the data were processed

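The table deposited by the authors holds raw read counts of 39017 Ensembl gene IDs for the 12 libraries. Per the submitters' processing notes, bcl2fastq 2.17, FastQC and Trimmomatic were used with genome build mm10. An aligner, counter, strand setting and annotation release were not given in the sources used here. Per the labels' protocols, a stranded mRNA kit was used. IDs were named by GENCODE M21 (mm10, 37693 matched), which also gave coordinates and exon lengths. For exon length, the exons of all transcripts of a gene were merged.

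From the counts, genes were filtered with filterByExpr (15015 left), scaled by TMM and compared, cKO over WT, by robust quasi-likelihood tests of edgeR 4.0.16 (R 4.3.3), calling genes under 0.05 after Benjamini-Hochberg adjustment over all of them. Each SE is |log2 fold change| over root F. Reads carry no molecular identifiers, so floors of 3 reads cover counting error only. The scripts were tested on simulated data. Alternatives used DESeq2 1.42.0, limma 3.58.1, sva 3.50.0, other scalings and filters, and omitted libraries. Transcripts were compared by blastn (at least 95% identity over 200 bases). All members are named, and of other lists at most the 3 genes of smallest p, with Srebf1 named beside them after its values were seen. Members, lists and most alternatives were chosen with earlier results of these data known; 1 listed symbol, Marchf6, matched no ID.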

Additional observations from a re-analysis of the deposited data

Results flagged for a closer look

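Of 56 sets of 6 values examined (27 members and Kdm6a, in cKO and in WT), 4 had a library far from the other 5 by Dixon's test, and chance alone flags about 1 set in 20. All 4 were cKO 5 and all were high. Acat2 was at 12.4 CPM in cKO 5, with the other cKO libraries at 6.79 to 8.74 CPM. Mvk was at 26.1 CPM, with the others at 12 to 14.6 CPM. Fdps was at 18.3 CPM, with the others at 9.32 to 11.5 CPM. Tm7sf2 was at 29.4 CPM, with the others at 15.3 to 18.8 CPM. Of these, Fdps passed between the groups, and without cKO 5 its log2 fold change was 0.47 (adjusted p = 0.0203, edgeR).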

How the results depend on the processing

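No paired analysis was possible because the groups share no replicate number. The median log2 fold change of the members was positive in all 23 alternatives and ran from 0.26 to 0.37 over the fits without 1 library. Members called higher numbered 13 with limma-voom sample weights, 5 with no filter, 4 without cKO 1 and cKO 2 together (0.931% of all genes), 5 without cKO 1, cKO 2 and cKO 4, and 4 to 11 without 1 library; members called lower numbered 0 to 1 there, the 1 being Mvk without cKO 5. Over all genes, the higher and lower calls were 1013 and 830 with DESeq2, 2505 and 2133 with limma-voom, 1226 and 1192 with 1 surrogate variable, 141 and 275 without cKO 1 and cKO 2, 238 and 319 without cKO 1, cKO 2 and cKO 4, and 151 to 1633 and 309 to 1185 without 1 library. The cause of these shifts was not tested. Of 597 values of single members under the alternatives, 513 kept sign and call, 46 lost a call, 22 gained one and 16 changed sign, none of them in a member that passed. Those were Pmvk (-0.093 with limma-voom, -0.122 to 0.222 without 1 library), Dhcr7 (-0.072 with limma-voom, -0.016 to 0.168 without 1 library), Tm7sf2 (-0.014 to 0.206 without 1 library), Mvk (0.032 with the marker component, 0.001 without cKO 1 and cKO 2, 0.132 without cKO 1, cKO 2 and cKO 4), Ebp (0.073, 0.044 and 0.189 in the same fits) and Scap (-0.046, -0.012 and -0.092 there, -0.012 with 1 surrogate variable, -0.013 with the length trend taken out). The fits without cKO 1, cKO 2 and cKO 4 and with the length trend taken out were chosen after seeing the data. Idi1 had too few reads for a fold change, and the cause was not tested.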

Other observations

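In fatty acid synthesis, the branch driven by SREBP1, the median log2 fold change was 0.29 and 13 of 19 values were positive. Of these 19 tested genes, 1 rose and 1 fell in cKO (8 higher and 2 lower at an unadjusted p under 0.05, 7 and 2 by DESeq2, 8 and 2 by limma-voom), against 2.44% and 3.43% of all genes called higher and lower (6.75% and 5.53% by DESeq2, 16.7% and 14.2% by limma-voom). Srebf1, named here after its values were seen, averaged 61.0 ± 4.47 CPM in cKO and 61.5 ± 6.18 CPM in WT (SD, n = 6 each; log2 fold change -0.01 ± 0.09). Fads2, a desaturase of long fatty acids, averaged 7.31 ± 1.54 CPM in cKO and 4.83 ± 0.45 CPM in WT and rose by 0.60 ± 0.15 on the log2 scale (adjusted p = 0.0330, edgeR). Mid1ip1, an activator of acetyl-CoA carboxylase, averaged 125 ± 15.1 CPM in cKO and 173 ± 31.0 CPM in WT and fell by 0.46 ± 0.12 (adjusted p = 0.0436, edgeR), with every cKO library below every WT library. The difference between Srebf2 and Srebf1 was not tested.

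Of 9 tested genes for oxysterol and ketone body enzymes, 0 passed in edgeR (2 higher and 0 lower at an unadjusted p under 0.05, 0 and 0 by DESeq2, 2 and 1 by limma-voom). The shares of all genes given above for each tool apply here as well. Bdh1, a ketone body dehydrogenase, had the smallest p of the list, at 5.11 ± 1.04 CPM in cKO and 3.96 ± 0.46 CPM in WT (log2 fold change 0.37 ± 0.16, adjusted p = 0.173, edgeR).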
